A study of Mus musculus with 6 samples.

Results

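The S100 calcium binding proteins were followed in cultured mouse mesothelioma cells, as the 10 genes S100a1, S100a3, S100a4, S100a6, S100a8, S100a9, S100a10, S100a11, S100a13 and S100a16. A gene was measured where the array's annotation gave at least 1 probe set with that symbol alone, which held for 9 of the 10 genes and for 18193 genes in all. S100a11, an annexin partner, was not analysed here, because its probe set carries the symbols of several genes. A gene's brightest such probe set, by its average across the 6 arrays, stood for it, and S100a1, S100a10 and S100a16 had 4 further probe sets between them as a check.

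Total RNA came from the malignant mesothelioma lines AB1 (from a BALB/c mouse, passage 40) and AC29 (from a CBA mouse, passage 60), and the labels give female sex and an age of 6 to 8 weeks for both. Both come from asbestos-induced tumours, and each strain is represented by a single line. No drug treatment, transgene or deletion is named for either line. Each was grown in culture medium with 5% foetal calf serum to 80% confluency, in 3 flasks with 1 Affymetrix 3′ array per flask. Line, strain and passage coincide and cannot be told apart, and p-values measure only the spread between flasks of a line.

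S100 proteins are small dimeric proteins with a pair of EF-hands, the loop motifs that bind calcium. Calcium opens a surface on most of them through which they bind annexins, myosin and other targets inside the cell, and some are also released and act on receptors such as RAGE (Ager) and Tlr4. S100a10 is the exception that stays in its open form without calcium, bound to annexin A2 under the plasma membrane. Most S100 genes sit side by side on mouse chromosome 3, in and beside the cluster of genes that build the skin barrier.

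Because neighbouring S100 genes differed in how they compared between the lines, the sequences at the start sites of 5 of them are shown first, from RefSeq on build GRCm38.p6. The RefSeq promoter table held windows for 9 of the 10 genes, S100a11 among them but not S100a10. S100a1 and S100a13 are divergent neighbours, and the 104 bases between their start sites, chr3:90514331-90514434, shown on the plus strand, separate a gene that was higher in AC29 from one that did not pass the test. S100a16, the gene with the largest difference, has windows at different starts, of which the 250 bases before each are given (chr3:90537004-90537253 and chr3:90540896-90541145, plus strand). S100a4 (chr3:90603520-90603769, plus strand) and S100a6 (chr3:90612644-90612893, plus strand) were bright in both lines. Capitals mark matches on either strand to a few known promoter motifs, and no marked matches overlap each other. The TATA box was searched as TATAAA. The CCAAT box was searched by the letters of its name. The GC box was searched as GGGCGG. The AP-1 site was searched as TGANTCA, with N for any base.
S100a1 and S100a13, between starts: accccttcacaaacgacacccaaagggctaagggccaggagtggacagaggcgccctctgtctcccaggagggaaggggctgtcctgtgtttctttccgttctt
S100a16, first window: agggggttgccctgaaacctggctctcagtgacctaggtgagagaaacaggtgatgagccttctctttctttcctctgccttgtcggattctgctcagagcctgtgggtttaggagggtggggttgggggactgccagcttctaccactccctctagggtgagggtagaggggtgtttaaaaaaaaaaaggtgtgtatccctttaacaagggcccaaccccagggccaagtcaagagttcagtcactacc
S100a16, second window: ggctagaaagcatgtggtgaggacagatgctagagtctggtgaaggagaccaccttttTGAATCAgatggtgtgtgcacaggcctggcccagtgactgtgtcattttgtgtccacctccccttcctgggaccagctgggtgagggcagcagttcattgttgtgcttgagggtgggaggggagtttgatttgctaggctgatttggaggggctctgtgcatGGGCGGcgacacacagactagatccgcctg
S100a4: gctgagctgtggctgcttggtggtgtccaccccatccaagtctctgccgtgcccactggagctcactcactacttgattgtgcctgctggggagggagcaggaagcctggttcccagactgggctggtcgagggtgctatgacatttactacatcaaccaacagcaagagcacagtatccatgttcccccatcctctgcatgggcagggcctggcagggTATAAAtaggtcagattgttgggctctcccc
S100a6: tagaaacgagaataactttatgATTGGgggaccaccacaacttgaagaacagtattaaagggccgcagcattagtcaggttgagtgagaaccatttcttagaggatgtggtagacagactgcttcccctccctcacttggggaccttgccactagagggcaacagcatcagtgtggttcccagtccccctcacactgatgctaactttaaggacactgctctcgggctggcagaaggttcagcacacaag

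The stretch between S100a1 and S100a13 and the first window of S100a16 held none of these motifs. In the second window of S100a16 a match to the AP-1 pattern TGANTCA, reading TGAATCA, began 192 bases and a GC box 30 bases before the start. The TATA box of S100a4 began 31 bases before its start, and the CCAAT box of S100a6, which reads ATTGG on the plus strand, 228 bases before. Of the 32851 windows of 300 bases in the table (250 before to 50 after a start), 13.6% held the TATA box, 37.4% the CCAAT box, 35.7% the GC box and 7.81% the AP-1 site. Among the 13 windows of the 9 genes that had one, S100a11 included, 4 held the TATA box, 2 the CCAAT box, 4 the GC box and 2 the AP-1 site. The windows of S100a1 and S100a13 held 11 and 14 CG dinucleotides, those of S100a16 held 2 and 4, and that of S100a4 held 2, against a median of 7 over all windows. These matches describe the letters of the reference build only. The sequences of AB1 and AC29 themselves, and binding at these sites, were not analysed here.

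The deposited values were taken as RMA values on the log2 scale, on which a difference of 1 is a 2-fold change. RMA compresses the differences of very dim and very bright probe sets. Array medians ran from 5.76 to 5.81, and Pearson's r across genes was at least 0.995 within a line and at most 0.938 between the lines. AC29 replicate 14 stood apart from the other AC29 arrays on the second principal component, which held 2.86% of the variance. The 95th percentile of 86 odorant, pheromone and taste receptor probe sets, 6.07, served as the floor, and a line whose 3 arrays were all at or under it was taken as not above background. Most mesothelial markers were higher in AC29. In limma 8 of 10 were called toward AC29 and none toward AB1, against 5.12% and 5.82% of all genes. At an unadjusted p under 0.05 in limma 9 passed toward AC29 and 0 toward AB1, against 22.3% and 22.9%. The largest differences were those of Krt8 (12.98 in AC29 against 5.61 in AB1), Upk3b (12.51 against 5.22) and Bnc1 (10.79 against 3.50). Krt8 is a simple epithelial keratin, Upk3b a uroplakin and Bnc1 a transcription factor, and none of the 3 was above the floor in AB1. Msln, which encodes mesothelin, was above the floor in both lines (10.41 in AC29 and 9.67 in AB1) but was not called. Calb2 was not called either (6.58 in AC29 and 6.43 in AB1), and Krt18, though called, was bright in both lines (13.55 and 12.38).

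S100a16 and S100a1 were higher in AC29 by more than 2-fold. S100a10 was higher in AC29 by a smaller amount, and S100a4 and S100a6 were at the bright end of the array in both lines. S100a3, S100a8 and S100a9 lay below the floor in both lines, and S100a13 read nearly the same in all flasks. The rule for a call was at least a 2-fold difference together with an adjusted p under 0.05 (limma, Benjamini-Hochberg over the 18193 genes). By that rule 2 of the 9 measured S100 genes were called, both toward AC29; none was called toward AB1, where 2 had an unadjusted p under 0.05 in limma. At that limit 3 passed toward AC29 and 2 toward AB1, against 22.3% and 22.9% of all genes. Over all genes 10.9% were called, 5.12% toward AC29 and 5.82% toward AB1, and 9 genes are too few to read their count against these shares. At an adjusted p under 0.05 with no minimum difference, 3 of the 9 passed, all toward AC29, against 39.1% of all genes, 19.1% toward AC29 and 20.0% toward AB1. That absence of genes toward AB1 depended on the processing, since S100a6, or S100a6 and S100a4, passed toward AB1 under other settings. For 6 of the 9 the values of one line all lay above those of the other, against 50.1% of all genes. The median difference of the 9 was 0.09, and the median of its absolute size 0.22, against -0.0047 and 0.20 over all genes.

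**Figure D1:**
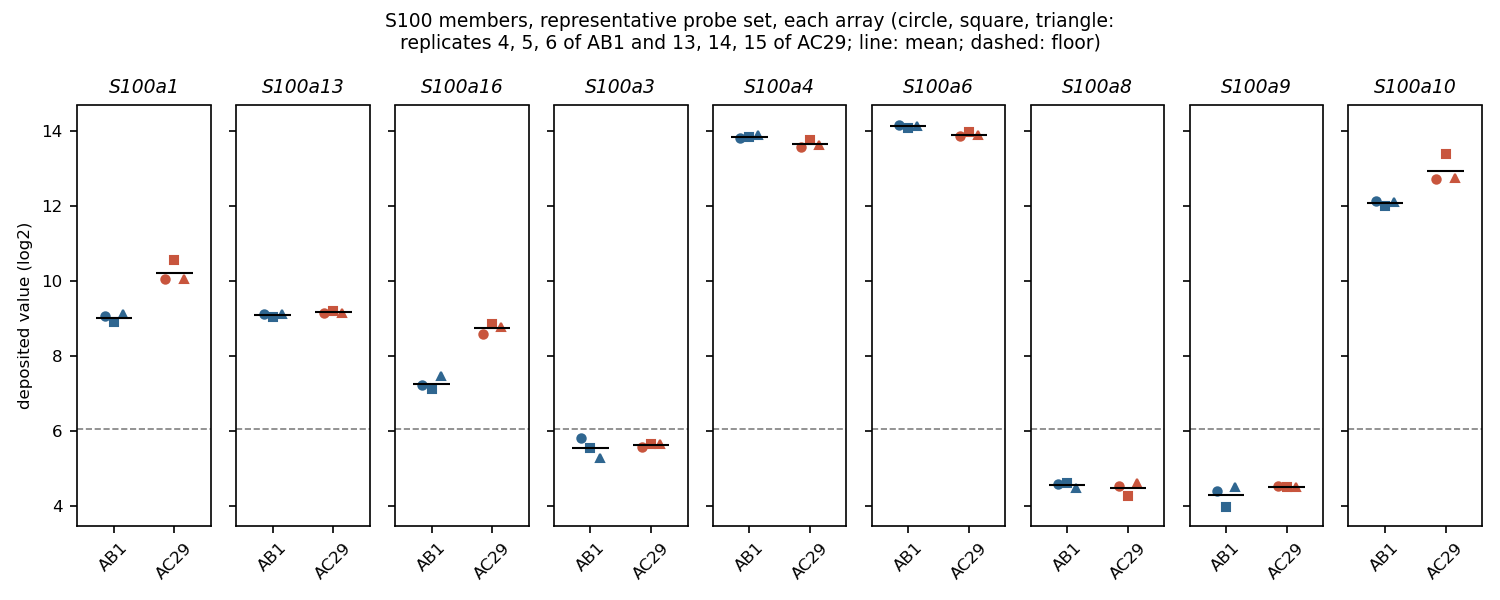
Deposited log2 value (vertical axis) of the representative probe set of each of the 9 measured S100 genes on every array, with AB1 in blue, AC29 in red, a line at the mean of 3 arrays and the floor of 6.07 dashed. The AC29 arrays lie above all AB1 arrays for S100a1, S100a16, S100a10 and, by little, S100a13, while S100a3, S100a8 and S100a9 lie under the floor in both lines.

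S100a16, a widely expressed member of the family, read 7.24, 7.12 and 7.46 in AB1 and 8.60, 8.86 and 8.78 in AC29. All AC29 arrays were above all AB1 arrays. The means were 7.27 ± 0.18 and 8.75 ± 0.13 (SD, n = 3), a difference of 1.47 (SE 0.114) or 2.77-fold, with an adjusted p of 7.17e-06 in limma. Its other probe set read 5.15, 5.91 and 5.66 in AB1, under the floor, and 7.52, 7.47 and 7.73 in AC29. Set against the floor, that probe set was at least 2.83-fold higher in AC29, the same direction. Of the 9, S100a16 alone passed limma's treat test, whose null is a change of at most 2-fold (adjusted p = 0.0209).

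S100a1, known from heart and skeletal muscle, where it acts on the calcium pump and the calcium release channel, was likewise higher in AC29. Its values were 9.06, 8.91 and 9.12 in AB1 and 10.05, 10.56 and 10.07 in AC29, with no overlap, and AC29 replicate 14 was the highest array. The means of 9.03 ± 0.11 and 10.23 ± 0.29 (SD, n = 3) differed by 1.20 (SE 0.142), or 2.29-fold (limma adjusted p = 0.000122). The other S100a1 probe set read 8.04, 8.07 and 8.01 in AB1 and 9.07, 9.84 and 9.14 in AC29, a difference of 1.31. S100a1 was called without any 1 of the 6 arrays. S100a1 did not pass the treat test, and its 95% interval, 0.88 to 1.52, includes 1.

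S100a13, which takes part in the release of Fgf1 from cells and starts beside S100a1 on the opposite strand, read 9.12, 9.04 and 9.13 in AB1 and 9.15, 9.21 and 9.15 in AC29. These 6 arrays span less than the gap between the lines for S100a1, although the AC29 values lie just above those of AB1. The difference of 0.07 (95% interval -0.11 to 0.25) did not pass (limma adjusted p = 0.535), and the interval leaves out a 2-fold difference in either direction. On each array the value of S100a1 minus that of S100a13 was -0.07 ± 0.06 in AB1 and 1.06 ± 0.26 in AC29 (SD, n = 3). The change of this quantity between the lines was 1.12, with an exact permutation p of 0.1 (2-sided), the smallest that 20 arrangements of the arrays allow. With S100a1 separated and S100a13 nearly flat on these same arrays, that p-value followed from the values above and adds no separate support.

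S100a10, the light chain of the annexin A2 complex, also called p11, tethers plasminogen activation and ion channels to the cell surface. It read 12.14, 12.01 and 12.12 in AB1 and 12.72, 13.38 and 12.75 in AC29. The lines did not overlap, and AC29 replicate 14 lay 0.638 above the next AC29 array. The difference of 0.86 (SE 0.166), or 1.81-fold, had an adjusted p of 0.00258 in limma but stayed under the 2-fold minimum. The other S100a10 probe sets gave differences of 0.75 and 0.86, the second from a probe set near the floor in AB1 (6.16 ± 0.10, SD, n = 3, against 7.02 ± 0.66 in AC29). Without AC29 replicate 14 the S100a10 difference was 0.64 (limma adjusted p = 0.000389), and with no moderation of the variance its adjusted p was 0.0531.

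AC29 replicate 14 was the highest of the AC29 arrays in all 5 probe sets of S100a1 and S100a10, and in 9 of the 10 S100 probe sets above the floor. Over the 11104 genes above the floor in AC29, it was the highest AC29 array for 33.4%. Without it the difference was 1.03 for S100a1, 0.64 for S100a10 and 1.41 for S100a16, all still toward AC29.

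**Figure D2:**
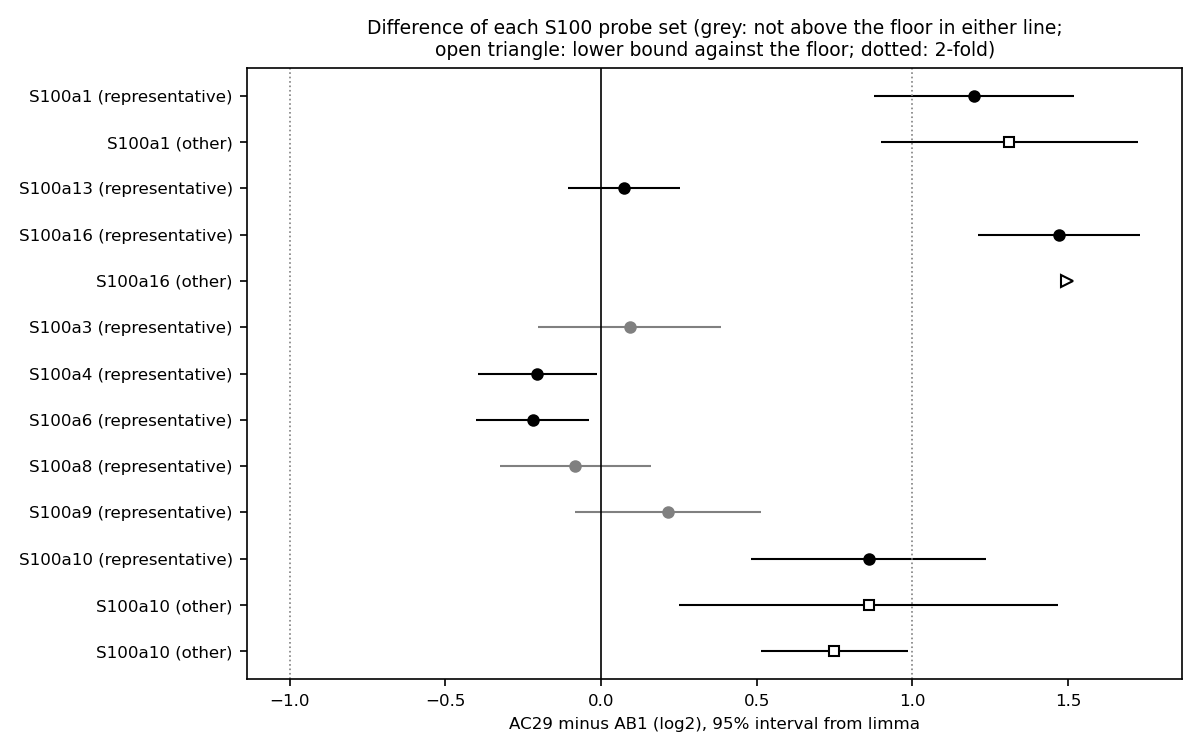
AC29 minus AB1 on the log2 scale (horizontal axis) for all 13 probe sets of the 9 S100 genes, with 95% intervals from limma; filled circles are representative and open squares other probe sets, grey is not above the floor, the open triangle is the other S100a16 probe set as a lower bound against the floor, with no interval, and dotted lines mark 2-fold. All probe sets of S100a1, S100a16 and S100a10 lie to the right of 0, from 0.75 upward.

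S100a4, which binds non-muscle myosin and is widely used as a marker of fibroblasts and motile tumour cells, read 13.83, 13.85 and 13.90 in AB1 and 13.58, 13.76 and 13.62 in AC29. The AB1 arrays were all slightly higher. The difference of -0.20 (95% interval -0.40 to -0.01) did not pass after adjustment (limma adjusted p = 0.0907). S100a6, also called calcyclin, a protein of proliferating cells that binds Cacybp, read 14.18, 14.08 and 14.14 in AB1 and 13.88, 13.97 and 13.89 in AC29. Its difference of -0.22 (95% interval -0.40 to -0.04) did not pass either (limma adjusted p = 0.0588). Both were near the threshold, and the choice of settings moved them across it. Without AC29 replicate 14 the limma adjusted p was 0.0403 for S100a4 and 0.0462 for S100a6, with a variance trend 0.0253 and 0.0101, and with array weights 0.0442 and 0.0306. S100a6 alone also passed with median centring (limma adjusted p = 0.0416), with the dim genes left out by either filter (0.0418 and 0.0416), with probe sets averaged (0.0281) and with no moderation (0.0238). Neither reached 2-fold under any alternative run. Both lay close to the highest value on any array, which ran from 14.54 to 14.69 across the arrays.

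Mesenchymal markers, set beside S100a4, did not move one way. Of 10 measured, 2 were called toward AB1 and 1 toward AC29, against 5.82% and 5.12% of all genes. At an adjusted p under 0.05 in limma with no minimum difference, 5 passed toward AB1 and 2 toward AC29. The shares of all genes were 20.0% and 19.1%. Acta2, smooth muscle actin, read 13.22 in AB1 and 6.53 in AC29, and the growth factor receptor Pdgfrb 9.11 and 4.96, while the collagen chain Col1a1 read 11.43 and 13.12. The intermediate filament Vim was bright in both lines (14.08 in AB1 and 13.53 in AC29) and was not called. Acta2 differed 104-fold between the lines.

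S100a8 and S100a9 form calprotectin, the abundant calcium and zinc binding complex of neutrophils and monocytes. S100a8 ran from 4.49 to 4.63 in AB1 and from 4.28 to 4.63 in AC29. S100a9 read 4.42, 4.00 and 4.52 in AB1 and 4.54, 4.51 and 4.53 in AC29. Every value of both genes was under the floor, the lines overlapped, and no fold is given. S100a3, a protein of the hair cuticle, was also under the floor on every array, at 5.82, 5.54 and 5.29 in AB1 and 5.59, 5.67 and 5.67 in AC29. Among 17 measured markers of myeloid cells 10 lay below the floor in both lines, or 58.8%, against 36.0% of all genes. These included Ptprc, Itgam, Elane, Ltf and Adgre1. The summed log2 level of the 17 ran from 93.7 to 95.1 in AB1 and from 92.4 to 93.5 in AC29. That sum includes the 10 below the floor, and Cd14 (-1.76) has the largest difference in it. Cd14, a co-receptor for lipopolysaccharide that is not confined to myeloid cells, was the only marker called, 3.39-fold higher in AB1 (9.02 against 7.26). Over all genes 10.9% were called. With no minimum difference 3 markers passed in limma, against 39.1% of all genes. Besides Cd14 these were Cd68, toward AB1 (6.68 in AB1 and 6.03 in AC29), and Lyz2, toward AC29 (5.83 and 6.31). Cd68 was not above the floor in AC29, nor Lyz2 in AB1. The brightest one not called was Laptm5, at 6.69 and 6.58.

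Of 7 other S100 genes listed, 5 were measured, and these were at or near background. None of the 5 was called in limma, against 10.9% of all genes, and 1 had an unadjusted p under 0.05, against 45.2%. That gene, S100a5, read 6.19 in AB1 and 5.74 in AC29, where it was not above the floor (limma adjusted p = 0.00206), which is at least 1.08-fold. S100a7l2, S100a14, S100b and S100g were not above the floor. The 5 measured genes of the fused type, Flg, Hrnr, Rptn, Tchh and Tchhl1, which join an S100 domain to a long structural protein of skin and hair, were not above it either.

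Along chromosome 3 the called S100 genes were not next to each other. In the RefSeq gene order (GRCm38.p6) S100a13 and S100a14 lie between S100a1 and S100a16, and S100a3, S100a4, S100a5, S100a6, S100a8 and S100a9 follow. S100a10 lies at the far end of the cluster, beyond the genes of the skin barrier. Of 40 other measured genes between S100a1 and S100a10, 28 were not above the floor, or 70.0%, against 36.0% of all genes. None of the 40 was called in limma, where 10.9% of all genes were, and 6 had an unadjusted p under 0.05, against 45.2% of all genes. Without the minimum 4 passed, 2 in each direction, against 39.1% of all genes. The 10 measured genes before S100a1 included 1 called gene, the zinc transporter Slc39a1, at 7.88 in AC29 and 8.98 in AB1. In the 10 after S100a10 the called gene was Tdrkh, toward AB1, which lay below the floor in both lines (4.19 in AC29 and 5.34 in AB1). The genes next to S100a1 outside the cluster, Chtop (a difference of 0.04) and Snapin (-0.10), were named after their values were seen. The other Snapin probe set read 6.99 in AB1 and 7.93 in AC29. Its difference of 0.94 toward AC29 (limma adjusted p = 0.000311) was under the 2-fold minimum. The other Chtop probe set differed by 0.03.

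**Figure D3:**
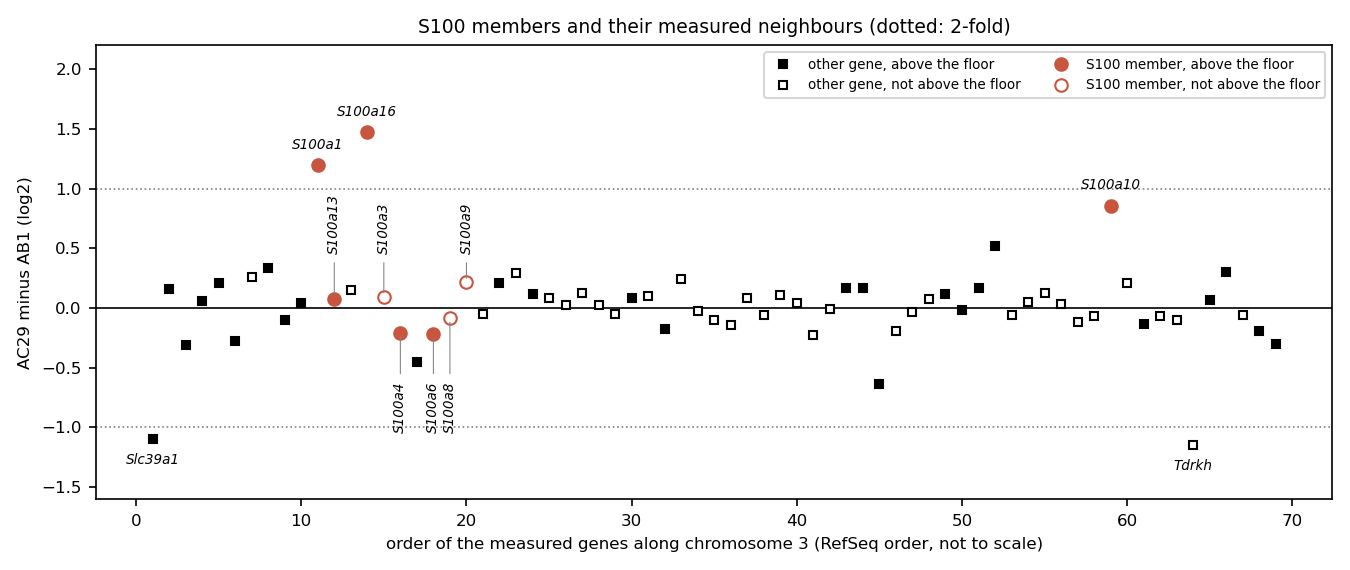
AC29 minus AB1 on the log2 scale (vertical axis) for the representative probe sets of 69 measured genes in their order along chromosome 3. The S100 genes followed here are in red. Other genes, S100a5, S100a7l2 and S100a14 among them, are black squares. Open symbols lie below the floor in both lines, and dotted lines mark 2-fold. S100a1 (1.20), S100a16 (1.47) and S100a10 (0.86) stand above the other genes, while Slc39a1 (-1.10) and Tdrkh (-1.14) are the lowest.

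Annexins, the membrane binding proteins that pair with S100 proteins, differed between the lines for most members, though seldom by 2-fold. Of 11 measured, 8 had an adjusted p under 0.05 in limma, 5 toward AC29 and 3 toward AB1, against 39.1% of all genes, and for 8 all values of one line lay above those of the other, against 50.1%. The 8 past the adjusted p included Anxa9, toward AC29 and at the floor, and Anxa10, toward AB1 and below the floor in both lines. The median absolute difference of the 11 was 0.37, against 0.20 over all genes. Anxa8 was called toward AC29 and Anxa7 toward AB1, and 9 were not called. Over all genes 5.12% were called toward AC29 and 5.82% toward AB1. Anxa8 read 8.36 ± 0.01 in AB1 and 11.63 ± 0.09 in AC29 (SD, n = 3), a 9.63-fold difference (limma adjusted p = 4.74e-09), and its other probe set differed by 3.34. Anxa7 read 12.34 ± 0.10 in AB1 and 10.80 ± 0.19 in AC29, 2.91-fold (limma adjusted p = 4.69e-06), with other probe sets at -1.30 and -0.78.

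Anxa2, the partner of S100a10, read 13.49 ± 0.05 in AB1 and 13.76 ± 0.05 in AC29 (SD, n = 3), a difference of 0.27 (limma adjusted p = 0.025) in the direction of S100a10 and under the minimum. Its other probe set above the floor differed by 0.08 and missed the threshold (limma adjusted p = 0.537), and the third lay below the floor in both lines. Anxa1, the partner of S100a11, read 13.11 in AB1 and 13.12 in AC29. Anxa3 (0.44) and Anxa6 (0.55) also had adjusted p-values under 0.05 toward AC29, and Anxa5 (-0.33) toward AB1, all under the 2-fold minimum. Anxa4 differed by -0.01, though its other probe sets gave 0.35 and 0.39. Anxa9 was at the floor (6.06 in AC29 and 5.70 in AB1), and Anxa10 and Anxa13 were not above it.

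None of 9 measured intracellular partners of S100 proteins was called in limma, against 10.9% of all genes. With no minimum difference 5 had an adjusted p under 0.05 in limma, as many as at an unadjusted p under 0.05 (39.1% and 45.2% of all genes). Ahnak, a giant scaffold bound by S100a10 and Anxa2, differed by 0.69 and Cacybp, the S100a6 binding protein, by 0.40, both higher in AC29. Myh9, the heavy chain of non-muscle myosin bound by S100a4, differed by -0.75 and Ppfibp1, a liprin also bound by S100a4, by -0.93, both higher in AB1. Sugt1, a co-chaperone that binds S100a6, differed by -0.73, but its other probe set differed by 0.30. Atp2a2, the calcium pump on which S100a1 acts, read 12.04 in AB1 and 12.24 in AC29, a difference that missed the threshold. Among its other probe sets above the floor, that at 0.47 passed (limma adjusted p = 0.0152), under the 2-fold minimum. Those at 0.17 and 0.24 did not pass. Ryr2, the release channel of heart, and Fgf1 and Il1a, secreted factors released with S100a13, lay below the floor in both lines.

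None of 7 receptors for released S100 proteins was called in limma, against 10.9% of all genes, and 4 had an unadjusted p under 0.05, against 45.2%. Tlr4, a receptor for S100a8 and S100a9, read 8.61 ± 0.21 in AB1 and 7.74 ± 0.13 in AC29 (SD, n = 3). Its difference of -0.87 (limma adjusted p = 0.000322) was under the 2-fold minimum. Another Tlr4 probe set, well above the floor, went the same way by less (8.28 in AB1 and 7.91 in AC29). A further one, near the floor, went the other way (6.01 in AB1 and 6.55 in AC29). Nptn differed by 0.25 (limma adjusted p = 0.0352), toward AC29. Bsg, the brightest of the list, read 12.62 in AB1 and 12.76 in AC29 and missed the threshold. Ager, which encodes RAGE, read 6.48 and 6.61, near the floor. Mcam read 6.59 and 6.35, and Cd36 and Alcam were not above the floor.

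**Figure D4:**
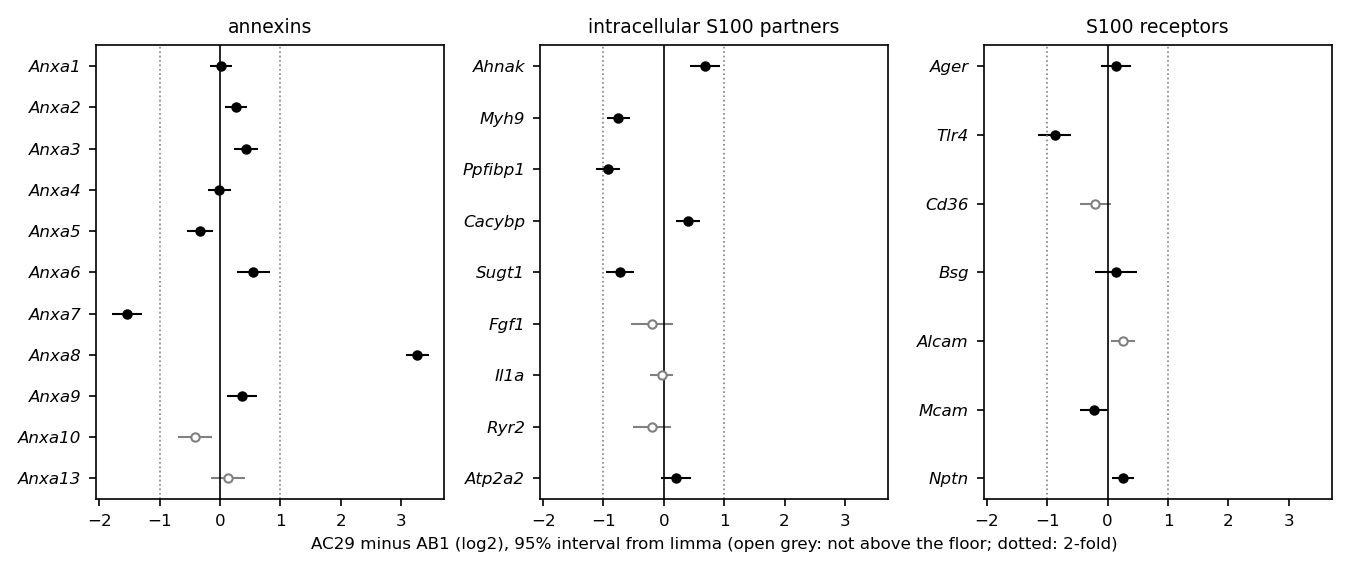
AC29 minus AB1 on the log2 scale (horizontal axes) with 95% intervals from limma for 11 annexins, 9 intracellular partners and 7 receptors of S100 proteins; open grey symbols lie below the floor in both lines, and dotted lines mark 2-fold. Anxa8 (3.27) and Anxa7 (-1.54) lie outside the 2-fold lines, and the partners and receptors lie within them.

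The genes whose pattern over the 6 arrays was most like that of S100a16, by the Euclidean distance between log2 values centred on each gene's mean, were Wfdc1 (distance 0.154), Tmem184a (0.197) and Ppp2r5b (0.225). Wfdc1 read 6.64, 6.55 and 6.91 in AB1 and 8.12, 8.45 and 8.28 in AC29, so that AB1 replicate 6 was the highest AB1 array and AC29 replicate 14 the highest AC29 array, as for S100a16. Tmem184a was not above the floor in AB1 (5.53) and read 6.98 in AC29, and Ppp2r5b read 7.82 and 9.34.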

How the data were processed

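RNA of 6 flasks, 3 per line, was hybridised to 1 array each from 5 ug of total RNA, per the labels' protocols. The authors deposited log2 values of 45101 probe sets on each array. GCOS, RMA and Partek 6.4 appear in the submitters' processing notes without a stated role. The log2 scale was taken from these notes and the range of the values. Detection calls and scan batches were not used here, so a batch could not be tested, and the number of arrays limits the precision.

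After removal of 64 control probe sets, 34945 probe sets had 1 gene symbol in the platform annotation, 932 had several and 9160 had none, and 34741 of the first matched the RefSeq gene table by Entrez identifier. Line was fitted with limma 3.58.1 in R 4.3.3 (lmFit, eBayes, 2-sided) to all probe sets outside the controls, and p-values were adjusted over the 18193 representative probe sets. The model had 4 residual and 8.92 moderated degrees of freedom and was tested on simulated data. Errors are SD over 3 arrays or limma's standard error, and intervals are at 95%. No fold was computed where neither line was above the floor.

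The S100 genes and all lists were chosen with earlier results of these data known. The rule for naming took all members, all annexins, in other lists at most 3 called genes each way and the brightest uncalled gene, called chromosome neighbours and the 3 genes most like the leading member. The other measured partners and receptors, and the myeloid markers at background, were named after their values were seen. Alternatives covered normalization, filters, the choice of probe set, variance moderation, thresholds, the floor and leaving out each array.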

Additional observations from a re-analysis of the deposited data

How the results depend on the processing

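No paired analysis was possible because the lines share no replicate numbers. S100a16 kept its call under every alternative run, and S100a1 under all but the test against a 2-fold difference (1.20, no longer past the threshold). S100a10 (0.86) passed when no minimum difference was asked. Leaving out 1 array turned the sign of S100a3 (-0.041 to 0.23, negative without AB1 replicate 6) and S100a8 (-0.15 to 0.022, positive without AC29 replicate 14), both under the floor. The S100 genes called higher in AC29 numbered 1 against a 2-fold difference, and 4 probe sets were called when each was tested on its own. At the adjusted p with no minimum, 3 S100 genes passed toward AC29 (1 against a 2-fold difference, 2 with no moderation) and 0 toward AB1 in limma, where 2 had an unadjusted p under 0.05. Toward AB1 the count was 1 with median centring, either filter on dim genes, averaged probe sets or no moderation, and 2 with a variance trend or array weights. It was 0 to 2 when an array was left out, the higher count without AC29 replicate 14. Over all genes, the counts higher in AC29 and in AB1 were 932 and 1059 in the report, 565 and 672 against a 2-fold difference, 3475 and 3630 with no minimum, and 1749 and 1840 probe sets on their own. With no minimum, the lists had 1 other S100 gene, 8 annexins, 5 partners, 2 receptors, 14 other EF-hand genes, 3 myeloid markers, 7 mesenchymal markers and 9 chromosome neighbours past the threshold. Tested probe set by probe set, annexins had 4 calls, other EF-hand genes 6, mesothelial markers 14 and mesenchymal markers 7. A filter on the mean left 1 EF-hand call. The chromosome neighbours had 1 call with either filter on dim genes or with no moderation, 0 in limma's test against a 2-fold difference (9 at an adjusted p under 0.05 without that minimum), and 1 to 2 when an array was left out, the lower count without AB1 replicate 4, AC29 replicate 13 or AC29 replicate 15. The floor was 5.68 at the 90th and 7.23 at the 99th percentile, with 7 and 6 of the 9 S100 genes above it. The cause of these changes was not tested.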

Other observations

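Of 24 measured EF-hand genes outside the S100 family, 1 was called toward AC29 and 2 toward AB1 in limma, and 21 were not called. Over all genes 5.12% were called toward AC29 and 5.82% toward AB1. With no minimum difference 14 passed, 6 toward AC29 and 8 toward AB1, against 39.1% of all genes. Their median difference was 0.03 and the median of its absolute size 0.46, against 0.20 over all genes. Gca, which encodes grancalcin, a penta-EF-hand protein, read 3.28 ± 0.08 in AB1 (SD, n = 3), under the floor, and 7.03, 6.93 and 7.04 in AC29, which is at least 1.90-fold, and its other probe set read 2.99 in AB1, under the floor, and 6.56 in AC29. Ncs1, a neuronal calcium sensor, was 2.10-fold higher in AB1 (8.39 ± 0.16 against 7.32 ± 0.05), while its other probe sets differed by -0.50 (limma adjusted p = 0.0254), under the 2-fold minimum, and by -0.09, which did not pass (limma adjusted p = 0.536). Efhd1, a mitochondrial calcium sensor, was counted toward AB1 but lay below the floor in both lines (5.62 and 3.73). The brightest gene of the list that was not called was Calu, which encodes calumenin of the secretory pathway, at 12.39 in AB1 and 12.34 in AC29.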
